A study of Mus musculus with 9 samples.

Results

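The enterocyte brush border hydrolases Alpi, Sis, Lct, Anpep, Dpp4, Mme, Treh, Mgam, Enpep and Ace were examined as a family of 10 genes, found by symbol among the 23955 gene rows of a mouse organoid RNA-seq count table. Organoids are small epithelial bodies cultured from gut tissue, and all 9 samples came from APCmin/+ mice, which carry a mutated copy of the tumor suppressor gene Apc. The MIN group held 3 cultures of the gut epithelium that looked normal beside the tumors, the adenoma group 3 cultures of adenomatous polyps, and the sulindac group 3 cultures of adenomatous polyps treated with the NSAID sulindac. Every culture was grown in the same medium with Noggin, EGF, bFGF, R-spondin1 and B27. The labels give no gut region, age, sex, sulindac dose or treatment time, and no statement of which cultures came from the same mouse. A wild-type group was not analysed here, so MIN is the reference although its cells also carry the Apc mutation. The samples held between 30881206 and 48412477 counts. The levels are given in CPM, which scales a gene's counts by the size of its library after TMM normalization, and a gene with 3 counts or fewer in a sample was taken as at the floor of detection, which corresponds to 0.0647 to 0.0989 CPM.

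Mature enterocytes carry a dense lawn of microvilli, the brush border, whose membrane holds enzymes that finish digestion at the cell surface. Disaccharidases split sugars into monosaccharides, peptidases trim peptides to amino acids and short peptides, and intestinal alkaline phosphatase removes phosphate groups. These enzymes are usually read as marks of differentiated absorptive cells of the villus, and their genes are known targets of transcription factors of the HNF1, HNF4, CDX and GATA families. In bulk samples, fewer cells of a type cannot be told apart from less mRNA per cell.

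The 250 bases before the RefSeq transcription start (GRCm38.p6) are shown for 5 members that span the range of the data. Sis and Alpi were high in MIN and scarce in adenoma, with Alpi at or under the floor there, Lct was low in MIN and under the floor in adenoma, Mgam was lower in adenoma but still well expressed, and Ace was not lower. Capitals mark matches on either strand to short motifs. These were GTTAAT for the core of the HNF1 motif, TTTATG for the CDX motif with TTTATT as its other form, AGATAA for the GATA motif, CAAAGTC for the HNF4 motif and TATAAA for the TATA box. All 5 sequences read 5′ to 3′ in the direction of transcription. The Sis sequence is chr3:72967864-72968113 on the minus strand.
Sis: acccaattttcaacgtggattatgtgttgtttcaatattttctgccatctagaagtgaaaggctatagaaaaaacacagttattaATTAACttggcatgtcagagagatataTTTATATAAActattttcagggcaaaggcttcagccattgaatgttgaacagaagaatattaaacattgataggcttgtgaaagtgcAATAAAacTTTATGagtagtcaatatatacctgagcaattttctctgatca
The Lct sequence is chr1:128328319-128328568 on the minus strand.
Lct: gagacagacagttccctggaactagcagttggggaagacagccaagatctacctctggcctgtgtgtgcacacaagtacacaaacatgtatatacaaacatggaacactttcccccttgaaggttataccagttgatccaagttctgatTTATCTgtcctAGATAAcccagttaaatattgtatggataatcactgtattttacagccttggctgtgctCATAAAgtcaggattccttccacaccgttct
The Alpi sequence is chr1:87101607-87101856, on the minus strand.
Alpi: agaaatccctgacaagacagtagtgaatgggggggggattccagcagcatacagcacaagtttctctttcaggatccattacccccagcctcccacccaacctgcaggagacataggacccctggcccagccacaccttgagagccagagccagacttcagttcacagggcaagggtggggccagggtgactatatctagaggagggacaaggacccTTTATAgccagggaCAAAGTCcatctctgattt
The Mgam sequence is chr6:40628581-40628830 on the plus strand.
Mgam: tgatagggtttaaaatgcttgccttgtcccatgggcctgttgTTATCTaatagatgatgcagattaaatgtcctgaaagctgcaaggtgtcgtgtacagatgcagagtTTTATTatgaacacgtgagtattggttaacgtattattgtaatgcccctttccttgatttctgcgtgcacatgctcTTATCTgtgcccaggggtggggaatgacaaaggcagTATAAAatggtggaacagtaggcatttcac
The Ace sequence, from the first of its listed starts, is chr11:105967698-105967947 on the plus strand.
Ace: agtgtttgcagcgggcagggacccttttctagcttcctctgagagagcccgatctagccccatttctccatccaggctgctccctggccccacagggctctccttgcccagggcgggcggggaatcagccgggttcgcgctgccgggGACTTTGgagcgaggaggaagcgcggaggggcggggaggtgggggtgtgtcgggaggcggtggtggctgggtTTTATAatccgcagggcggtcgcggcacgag

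In the Sis window a GTTAAT match began 165 bases before the start, and TTTATG and TTTATT matches lay 43 and 51 bases before it. In the Lct window AGATAA occurred on opposite strands, 101 and 90 bases before the start. The Alpi window held CAAAGTC 19 bases before the start, and the Mgam window held AGATAA at 208 and 66 bases before it. Ace, the member that was not lower in adenoma, held CAAAGTC at 103 bases. Over all 10 members, TATAAA was found in 6, AGATAA and CAAAGTC in 3 each, TTTATG and TTTATT in 2 each and GTTAAT in 1, counting any listed start of a gene. Among all 32851 RefSeq mouse promoter windows of this length, TATAAA was in 12.4%, AGATAA in 9.99%, CAAAGTC in 3.84%, TTTATG in 10.8%, TTTATT in 18.1% and GTTAAT in 6.43%. The Anpep and Mme windows held none of these letters. Overlapping matches, as of TATAAA on both strands in Sis, share their capitals, and a match is a description of letters and not of a bound site.

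MIN organoids expressed all 10 hydrolases, and adenoma organoids had lost most of the mRNA of 9 of them. With edgeR's quasi-likelihood test, Benjamini-Hochberg adjusted over 13744 genes at a 1% false discovery rate (FDR), 9 of the 10 were lower in adenoma than in MIN, against 20.1% of all genes tested, and 0 of the 10 were higher, against 18.5% of all genes. At an unadjusted p under 0.05, and with DESeq2 at the same FDR, 1 member (Ace) was higher. The CPM of the groups did not overlap for any member. Adenoma lay below MIN for 9 members, as for 31.8% of all genes, and above MIN for Ace, as for 30.7%. The median fitted log2 fold change of the members was -9.03, or -8.89 with Mme at its bound, against -0.01 over all genes tested. The 10 genes together took 0.373% to 0.398% of the library in MIN and 0.0282% to 0.0413% in adenoma. Leaving out any 1 sample kept 9 members lower.

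**Figure D1:**
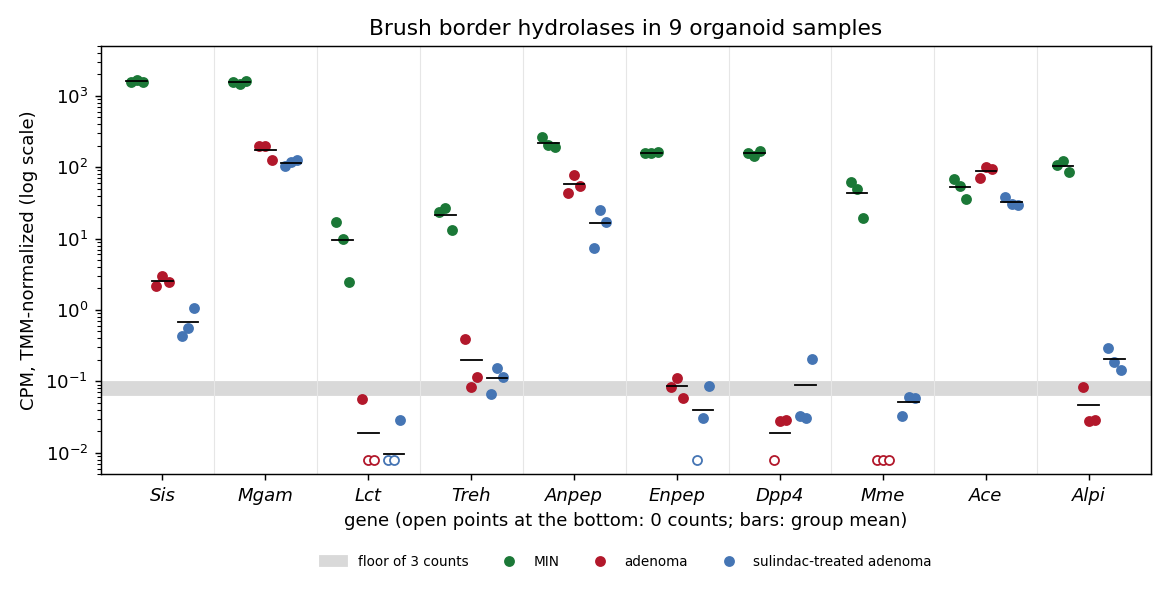
CPM of each hydrolase (log axis) in the 3 MIN, 3 adenoma and 3 sulindac-treated adenoma samples, with bars at the group means, a grey band at the floor of 3 counts and open points at the bottom for samples with 0 counts. Sis and Mgam lay at 1452 CPM or above in every MIN sample, but in adenoma Mgam stayed at 124 CPM or above while Sis was at 2.99 CPM or below, and Lct, Enpep, Dpp4, Mme and Alpi lay around or under the floor.

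Among the disaccharidases, Sis, which encodes sucrase-isomaltase and splits sucrose and the branch points of starch, was with Mgam one of the most abundant hydrolases in MIN. It had 63251, 78212 and 58715 counts in the MIN samples, 78, 107 and 85 in adenoma, and 13, 18 and 37 in the sulindac-treated samples. The groups were far apart, and no adenoma sample came near a MIN sample. The mean level was 1605 ± 74.3 CPM in MIN and 2.55 ± 0.409 CPM in adenoma (mean ± SD, n = 3 per group), a log2 fold change of -9.29 (SE 0.19, adjusted p = 1.65e-08, edgeR quasi-likelihood test).

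Mgam encodes maltase-glucoamylase, the close relative of Sis that releases glucose from starch fragments. Its counts were 64921, 67352 and 59210 in MIN, 7139, 6984 and 4289 in adenoma, and 3152, 3882 and 4330 in the sulindac-treated samples. Mgam matched Sis in MIN, yet it kept 4289 counts or more in every adenoma sample, with adenoma 3 the lowest. It fell from 1545 ± 80.7 to 173 ± 42.6 CPM (mean ± SD, n = 3 per group), a log2 fold change of -3.15 (SE 0.20, adjusted p = 4.14e-06, edgeR quasi-likelihood test), so adenoma held 11.2% of the MIN mean where Sis held 0.159%. The ratio of Mgam to Sis CPM was 0.861 to 1.03 in MIN and 50.5 to 91.5 in adenoma. Only 0.295% of the 50-base stretches of Mgam transcripts also lie in another gene, the pseudogene Mgam2-ps, and 0.148% of those of Sis.

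Lct, which encodes lactase, the enzyme that digests milk sugar, was the scarcest member in MIN per length of transcript. Its counts were 691, 451 and 91 in MIN, 2, 0 and 0 in adenoma, and 0, 0 and 1 in the sulindac-treated samples. The MIN samples themselves spread widely, with MIN 3 the lowest at 2.46 CPM and MIN 1 the highest at 16.8 CPM, and the other 6 samples lay under the floor. The pooled counts, scaled by library size here and in the ratios of the other members, were 525 times as high in MIN as in adenoma, with an exact 95% counting interval of 145 to 4337 (adjusted p = 0.000177, edgeR quasi-likelihood test). Such intervals cover counting error only, not the spread between cultures. Treh, which encodes trehalase, the enzyme for the fungal and insect sugar trehalose, had 979, 1243 and 495 counts in MIN, 14, 3 and 4 in adenoma, and 2, 5 and 4 in the sulindac-treated samples. MIN 3 was again the lowest of its group, and adenoma 1 held most of the adenoma counts. Treh fell from 21.3 ± 7.05 to 0.198 ± 0.17 CPM (mean ± SD, n = 3 per group), a log2 fold change of -6.72 (SE 0.48, adjusted p = 7.55e-06, edgeR quasi-likelihood test).

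The peptidases divided into those kept in part, those near 0 and Ace. Anpep encodes aminopeptidase N, which removes amino acids from the N-terminal end of peptides. It had 10939, 9593 and 7007 counts in MIN, 1540, 2743 and 1871 in adenoma, and 226, 815 and 588 in the sulindac-treated samples. Every MIN sample was above every adenoma sample, although adenoma kept more of Anpep than of any other hydrolase that fell. The mean went from 221 ± 40.4 to 58.1 ± 17.1 CPM (mean ± SD, n = 3 per group), a log2 fold change of -1.93 (SE 0.22, adjusted p = 0.000121, edgeR quasi-likelihood test).

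Enpep encodes glutamyl aminopeptidase (aminopeptidase A), a second N-terminal exopeptidase with a preference for acidic residues. Its counts were 6402, 7387 and 5987 in MIN, 3, 4 and 2 in adenoma, and 0, 1 and 3 in the sulindac-treated samples. It was the steadiest member in MIN, at 159 ± 2.94 CPM (SD, n = 3), and close to the floor in all other samples. Pooled counts scaled by library size were 1870 times as high in MIN as in adenoma (95% counting interval 985 to 4090, adjusted p = 1.36e-08 in the edgeR quasi-likelihood test). The ratio of Anpep to Enpep CPM, 1.17 to 1.71 in MIN, was 513 to 936 in adenoma.

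Dpp4 encodes dipeptidyl peptidase 4, which clips dipeptides and inactivates incretin hormones. It had 6454, 6647 and 6330 counts in MIN, 0, 1 and 1 in adenoma, and 1, 1 and 7 in the sulindac-treated samples. Levels in MIN were even, at 157 ± 13.9 CPM (SD, n = 3), and adenoma held 2 counts in all. The library-size-scaled ratio of pooled counts, MIN to adenoma, was 8267 (95% counting interval 2288 to 68269, adjusted p = 1.65e-08 in the edgeR quasi-likelihood test). Mme encodes neprilysin, an endopeptidase of peptide hormones. It had 2531, 2325 and 727 counts in MIN, 0 in each adenoma sample, and 1, 2 and 2 in the sulindac-treated samples. The MIN level of 43.8 ± 21.7 CPM (SD, n = 3) was therefore at least 515-fold that of adenoma, taking the floor of 3 counts per adenoma sample (adjusted p = 4.69e-05, edgeR quasi-likelihood test). As for Lct and Treh, MIN 3 was the lowest MIN sample.

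Ace, which encodes angiotensin-converting enzyme, a peptidase that removes C-terminal dipeptides, was the exception. Its counts were 2821, 2562 and 1316 in MIN, 2531, 3619 and 3283 in adenoma, and 1151, 1002 and 1007 in the sulindac-treated samples. On the CPM scale MIN ran from 35.6 to 68.7 and adenoma from 71.1 to 101, so the groups were adjacent without overlapping. The means were 53.2 ± 16.7 CPM in MIN and 89.2 ± 15.97 CPM in adenoma (mean ± SD, n = 3 per group). The log2 fold change of 0.75 (SE 0.23) did not pass the 1% threshold (adjusted p = 0.0243, edgeR quasi-likelihood test), and it passed with DESeq2 (adjusted p = 0.00692) and without MIN 1 (log2 fold change 0.96, adjusted p = 0.00914, edgeR). Of the 50-base stretches of Ace transcripts, 3.77% also lie in transcripts of the predicted gene Gm11651, the highest share among the members.

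Alpi, intestinal alkaline phosphatase, is widely used as a mark of the mature enterocyte. Its counts were 4409, 5641 and 3200 in MIN, 3, 1 and 1 in adenoma, and 9, 6 and 5 in the sulindac-treated samples. MIN held 105 ± 17.7 CPM (SD, n = 3), while each adenoma sample was at or under the floor. Pooled counts scaled by library size were 2255 times as high in MIN as in adenoma (95% counting interval 966 to 6946, adjusted p = 3.78e-08 in the edgeR quasi-likelihood test). Akp3, the neighbouring intestinal alkaline phosphatase gene with which Alpi shares 1.53% of its 50-base stretches, was scarce throughout, at 1.59 ± 0.726 CPM in MIN and 0.179 ± 0.116 CPM in adenoma (mean ± SD, n = 3 per group), a log2 fold change of -3.13 (SE 0.54, adjusted p = 0.00127, edgeR quasi-likelihood test).

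**Figure D2:**
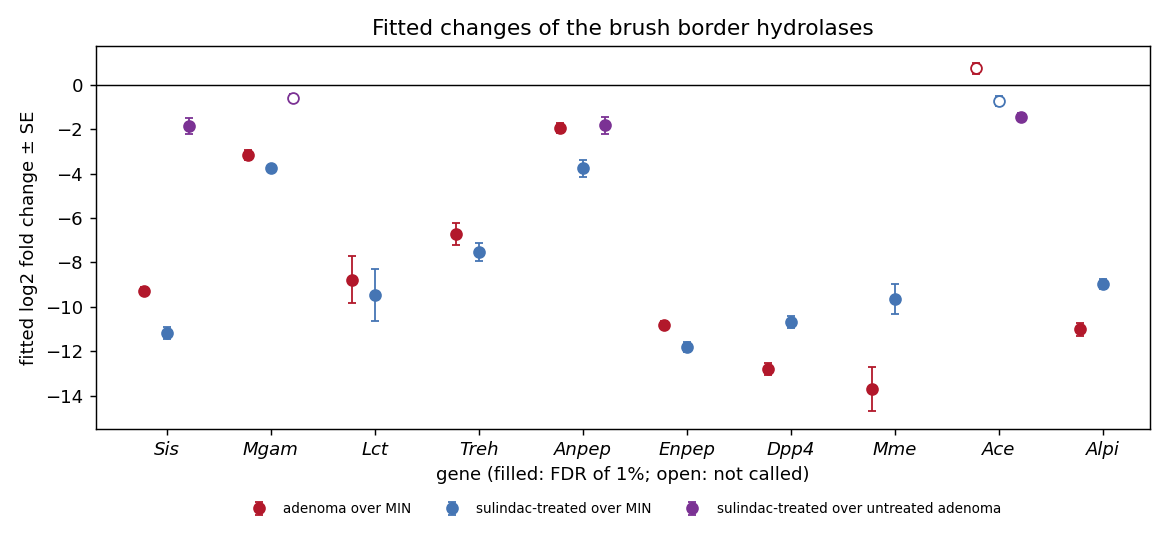
Fitted log2 fold changes of the hydrolases with standard errors, for adenoma over MIN, sulindac-treated adenoma over MIN, and sulindac-treated over untreated adenoma; filled points pass an FDR of 1%. Ace is the only member above 0 for adenoma over MIN (0.75, open point), and the positions of Lct, Enpep, Dpp4, Mme and Alpi depend on the prior count of the fit because their adenoma counts are at or near 0.

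Within MIN the members kept a clear order per length of transcript. Sis stood first with 270 ± 12.5 CPM per kb, followed by Mgam with 238 ± 12.4 CPM per kb (SD, n = 3), and both were far above the next gene. Anpep (58.2 ± 10.6), Alpi (45.0 ± 7.56) and Enpep (38.0 ± 0.704 CPM per kb) came next, then Dpp4 with 29.8 ± 2.64 CPM per kb. Ace (10.8 ± 3.40), Treh (10.4 ± 3.44) and Mme (5.45 ± 2.70 CPM per kb) followed, and Lct was last with 1.57 ± 1.16 CPM per kb. Alpi and Enpep, and Ace and Treh, differed by less than the larger SD of the pair, while every other step in this order was larger than that. MIN 3 was the lowest MIN sample for Alpi, Lct, Anpep, Mme, Treh and Ace but not for Sis, Mgam, Dpp4 or Enpep. The sum over the members differed little among the MIN samples, at 3981, 3912 and 3868 CPM.

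In adenoma the order was another one. Mgam led with 26.7 ± 6.56 CPM per kb, and Ace (18.2 ± 3.25) and Anpep (15.3 ± 4.50 CPM per kb) followed (SD, n = 3), of which Ace and Anpep differed by less than 1 SD. Sis, at 0.428 ± 0.0687 CPM per kb, came next, and no other member exceeded 0.0965 CPM per kb. Of the length-scaled sum of the family, Sis and Mgam made up 38.1% and 33.7% in MIN on average, and Ace 1.53%. In adenoma Mgam made up 43.9%, Ace 30.1%, Anpep 24.95% and Sis 0.707%. The summed level was 318, 377 and 276 CPM in the adenoma samples.

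**Figure D3:**
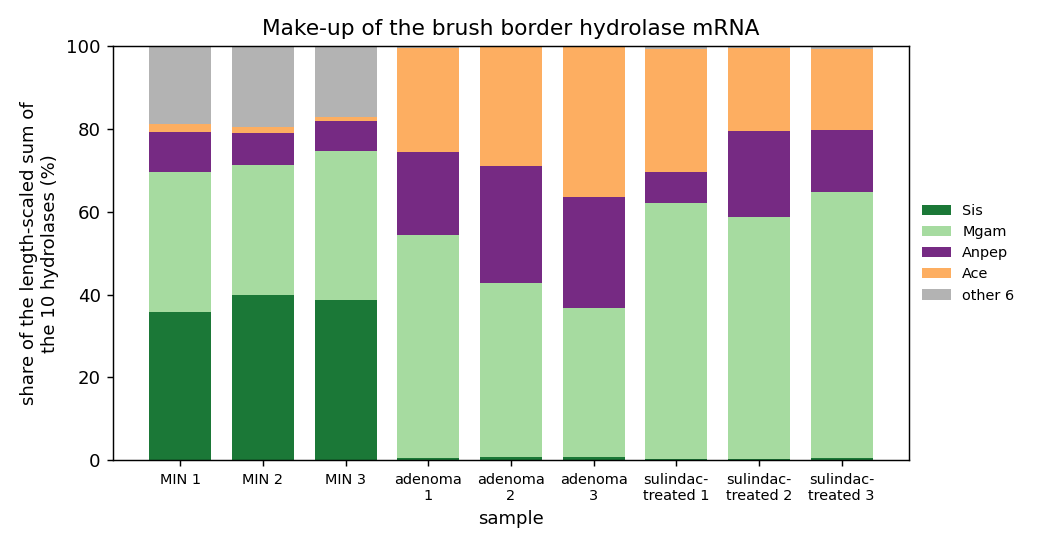
Share of each hydrolase in the length-scaled sum of the 10 genes (percent, 0 to 100), 1 bar per sample. Sis and Mgam fill most of each MIN bar, the adenoma bars consist almost wholly of Mgam, Anpep and Ace, and Mgam takes 58.3% to 64.2% of the sulindac-treated bars.

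The comparison of sulindac-treated with untreated adenoma organoids addressed the effect of the NSAID. Ace, Anpep and Sis were lower after sulindac. Only 4 members had enough counts to be tested among 12962 genes. Of these 4, 3 were lower at an FDR of 1%, against 9.10% of all genes tested, and 0 were higher, against 8.32%. Among these 4, 0 were also higher at an unadjusted p under 0.05 and with DESeq2. The same 3 did not overlap between the groups and were lower, which 26.2% of all genes tested also were. The summed level of the family was 150, 176 and 174 CPM in the sulindac-treated samples, below every untreated adenoma sample.

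Ace fell from 89.2 ± 15.97 CPM to 32.7 ± 4.62 CPM (mean ± SD, n = 3 per group), a log2 fold change of -1.43 (SE 0.16, adjusted p = 0.000577, edgeR quasi-likelihood test), and passed with any 1 sample left out. The highest sulindac-treated sample reached 37.9 CPM and the lowest adenoma sample 71.1 CPM. Anpep fell from 58.1 ± 17.1 to 16.5 ± 8.79 CPM (mean ± SD, n = 3 per group), with a log2 fold change of -1.81 (SE 0.38, adjusted p = 0.00762, edgeR quasi-likelihood test). Sulindac-treated sample 1 was the lowest for Anpep at 7.45 CPM, and the other 2 held 24.99 and 17.1 CPM. The call for Anpep was lost without sulindac-treated sample 3, adenoma 2 or adenoma 3 (adjusted p between 0.0216 and 0.0335, edgeR) and without the low-count filter (adjusted p = 0.0505). Sis fell further from its already low level, from 2.55 ± 0.409 to 0.686 ± 0.344 CPM (mean ± SD, n = 3 per group), a log2 fold change of -1.87 (SE 0.36, adjusted p = 0.00528, edgeR quasi-likelihood test). Its call was lost without sulindac-treated sample 1 or 2 or adenoma 2 (adjusted p between 0.0192 and 0.0228, edgeR), and with adenoma 2 left out 1 member, Ace, was called. Mgam went from 173 ± 42.6 to 116 ± 11.3 CPM (mean ± SD, n = 3 per group), and its log2 fold change of -0.57 (SE 0.18) did not pass (adjusted p = 0.0434, edgeR quasi-likelihood test). Adenoma 3, with 124 CPM, lay among the sulindac-treated samples, and without it Mgam was lower (log2 fold change -0.77, adjusted p = 0.000921, edgeR).

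The other 6 members had at most 14 counts in any sample of either group, and were removed by the low-count filter. At this depth most of them gave no readable change. Alpi had 20 counts in all after sulindac against 5 in untreated adenoma, a ratio of 4.35 after scaling by library size (95% counting interval 1.58 to 14.8). Each sulindac-treated sample was above each adenoma sample for Alpi, as it was for Dpp4 and Mme, where all but 1 sample had 2 counts or fewer. For Dpp4 this held in CPM only, because samples of both groups held 1 count and differed only in library size. Among the genes tested, which leave out these members, 22.5% were higher without overlap. In 1 fit of all 9 samples these members passed the low-count filter only through their high MIN counts. None of them was called after sulindac there, and that fit cannot support a change of these genes. Without the low-count filter Alpi was at 2.09 (adjusted p = 0.0516, edgeR). Alpi after sulindac, at 0.209 ± 0.0785 CPM, remained at 0.198% of its MIN mean.

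Against MIN, the same 9 members were lower in the sulindac-treated samples as in untreated adenoma, and these comparisons share samples. The fitted change of Ace was negative here and positive in untreated adenoma, and it was not called in either main fit. Of the 10 members, 9 were lower at an FDR of 1%, against 26.8% of 13551 genes, and 0 were higher, against 23.0%. At an unadjusted p under 0.05, 10 were lower and 0 higher, as were 4764 and 4251 of all genes tested. With DESeq2 10 were also lower and 0 higher, as were 4144 and 3432 of 15936 genes. The 9 members called in the main fit did not overlap with MIN, as was the case for 35.8% of genes in this direction. The median fitted log2 fold change was -9.22, against -0.03 over all genes. The log2 fold change was -11.16 for Sis (SE 0.27), -3.73 for Mgam (SE 0.11) and -3.74 for Anpep (SE 0.38). Ace, at 29.3 to 37.9 CPM, overlapped with MIN only through MIN 3 at 35.6 CPM, and its log2 fold change of -0.70 (SE 0.23) did not pass (adjusted p = 0.0253, edgeR quasi-likelihood test). Ace did pass with DESeq2 (adjusted p = 0.00366) and without MIN 3 (log2 fold change -0.92, adjusted p = 0.000354, edgeR). The ratio of Mgam to Sis, 117 to 242 in these samples, was the highest of the 3 groups.

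The hydrolases were set beside other gene lists of the absorptive cell. At an FDR of 1%, 20.1% of all genes tested were lower and 18.5% higher in adenoma. After sulindac 9.10% were lower and 8.32% higher, and the counts below stand against these shares. Of 14 other enzymes of the brush border, 11 were tested between adenoma and MIN, 10 were lower and 1 was not called, with a median log2 fold change of -5.16. Enpp7 and Ggt1 were among the largest falls. Enpp7, which encodes alkaline sphingomyelinase, was at 9.54 ± 6.35 CPM in MIN (SD, n = 3) and had 0 counts in the other 6 samples. Ggt1, the glutathione-degrading gamma-glutamyltransferase, went from 50.7 ± 20.1 to 0.207 ± 0.115 CPM (mean ± SD, n = 3 per group). Mep1a, the alpha subunit of the metalloprotease meprin, fell less, from 23.4 ± 2.68 to 2.26 ± 0.527 CPM (mean ± SD, n = 3 per group; log2 fold change -3.37). Xpnpep2, a membrane aminopeptidase for bonds next to proline, was the tested enzyme that was not called (log2 fold change 0.56, adjusted p = 0.056, edgeR). It was also the enzyme of the list that rose after sulindac, from 23.6 ± 7.13 to 68.3 ± 7.13 CPM (mean ± SD, n = 3 per group), a log2 fold change of 1.54 (adjusted p = 0.0014, edgeR), and the other 5 tested were not called.

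Nutrient uptake genes, 16 in all, were lower in adenoma for 15 and not called for 1, with a median log2 fold change of -6.48. Slc6a19, the transporter of neutral amino acids, was at 24.5 ± 12.3 CPM in MIN (SD, n = 3) with 0 counts in every adenoma sample. Fabp1, the liver-type fatty acid binding protein, went from 573 ± 297 to 0.0863 ± 0.101 CPM, and Apoa4, a lipoprotein component, from 938 ± 489 to 0.208 ± 0.06 CPM (mean ± SD, n = 3 per group). After sulindac, 1 of 8 tested was lower, Mttp, which loads lipid onto nascent lipoproteins (log2 fold change -1.26, adjusted p = 0.00213, edgeR), and 7 were not called. Its call was lost without sulindac-treated sample 1 or 2 (adjusted p = 0.0122 and 0.0114, edgeR).

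The genes that build the microvillus itself had smaller fitted changes. Of 20 such genes, 19 were tested between adenoma and MIN, of which 13 were lower and 2 higher, with a median log2 fold change of -0.98. With same-numbered samples paired, 11 were lower, without Myo6 and Slc9a3r1 (adjusted p = 0.0155 and 0.0191, edgeR). Myo1a, the motor that ties the membrane to the actin core, fell from 260 ± 23.6 to 1.90 ± 1.00 CPM (mean ± SD, n = 3 per group), a log2 fold change of -7.09. Tmigd1, an adhesion protein of the brush border, had 5.02 ± 2.31 CPM in MIN and 0.00966 ± 0.0167 CPM in adenoma (mean ± SD, n = 3 per group). Espn, an actin-bundling protein, rose from 22.5 ± 2.81 to 106 ± 24.8 CPM (mean ± SD, n = 3 per group; log2 fold change 2.24), and Vil1, villin, fell from 529 ± 22.6 to 195 ± 31.7 CPM (mean ± SD, n = 3 per group; log2 fold change -1.43). After sulindac, 5 of 18 structural genes tested were higher and 13 were not called, where 8.32% of all genes tested were higher. At an unadjusted p under 0.05, 11 were higher and 0 lower, as were 2685 and 3108 of all 12962 genes tested. The median log2 fold change was 0.46, against -1.62 for the 4 hydrolases tested and -0.01 over all genes. Myo1d, a class I myosin, and Cdhr2, a protocadherin that links microvilli, rose by 0.89 and 0.86 on the log2 scale, and Vil1 by 0.72 (adjusted p = 0.00169, 0.00159 and 0.00528, edgeR). The calls for Myo1d without sulindac-treated sample 3, and for Vil1 without any 1 sulindac-treated sample or without adenoma 2, were lost. On library sizes without TMM, which moved the median of all genes in this comparison to -0.18, Vil1 was at 0.56 and not called (adjusted p = 0.016, edgeR).

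**Figure D4:**
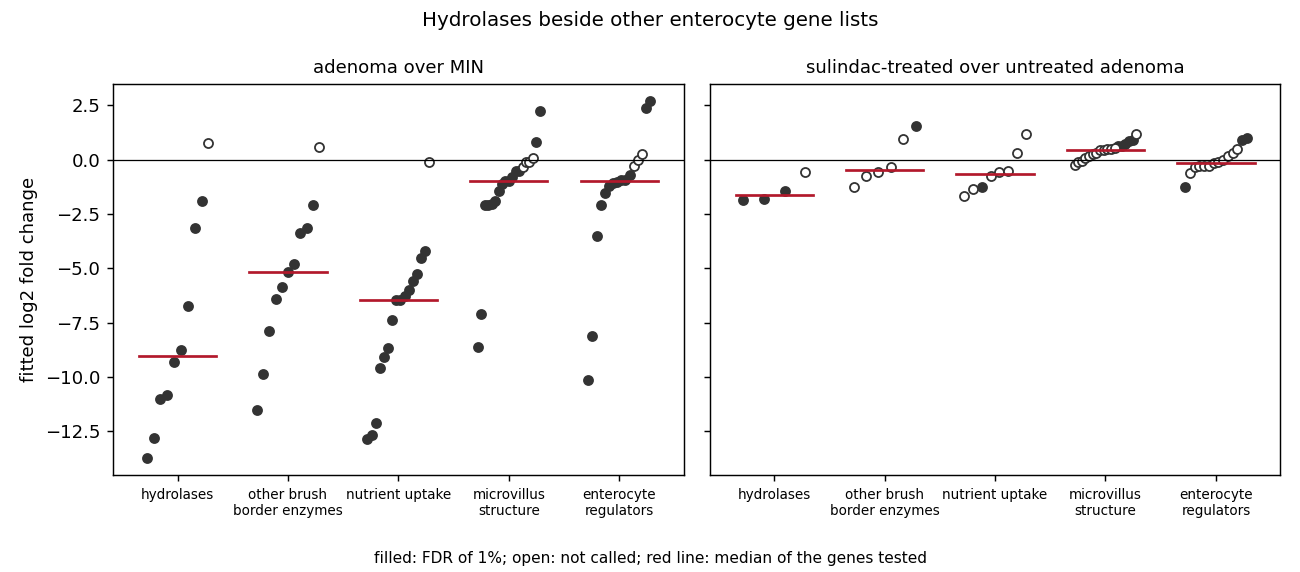
Fitted log2 fold changes of the genes tested in 5 lists, for adenoma over MIN (left) and sulindac-treated over untreated adenoma (right), with red lines at the medians and filled points for an FDR of 1%. In the left panel the hydrolases (median -9.03), other brush border enzymes (-5.16) and nutrient uptake genes (-6.48) lie far below 0 while the medians of the structural genes and regulators are near -1; in the right panel the structural genes have a median of 0.46 and the 4 hydrolases tested one of -1.62.

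The transcription factors known to act on hydrolase genes had fitted changes closer to 0. Of 16 enterocyte regulators tested, 11 were lower in adenoma, 2 were higher, and the median log2 fold change was -0.996. Hnf4a, whose family recognizes the CAAAGTC letters marked above, fell from 1169 ± 88.8 to 275 ± 29.6 CPM (mean ± SD, n = 3 per group), a log2 fold change of -2.09, and its paralog Hnf4g fell by 3.52 on the log2 scale. Cdx2 fell from 259 ± 16.7 to 121 ± 4.78 CPM (mean ± SD, n = 3 per group; log2 fold change -1.10), while Cdx1 went from 101 ± 12.2 to 0.0857 ± 0.0513 CPM (mean ± SD, n = 3 per group; adjusted p = 3.26e-08, edgeR). Gata4 fell from 116 ± 4.52 to 70.0 ± 3.01 CPM (mean ± SD, n = 3 per group; log2 fold change -0.72). Creb3l3, a membrane-bound factor of lipid metabolism, went from 58.2 ± 24.9 to 0.208 ± 0.0345 CPM (mean ± SD, n = 3 per group). After sulindac, 2 of 14 tested were higher and 1 was lower, where 8.32% of all genes tested were higher and 9.10% lower. Klf4, a factor of differentiating epithelium, rose from 44.6 ± 4.01 to 87.1 ± 7.58 CPM (mean ± SD, n = 3 per group; log2 fold change 0.98, adjusted p = 0.000689, edgeR). Hnf4a, Cdx2 and Gata4 were not called after sulindac (log2 fold change -0.13, -0.28 and 0.17).

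Other cell types were measured in the same samples. Leukocyte markers summed to 5.48 to 7.68 CPM in MIN, 8.70 to 17.0 in adenoma and 3.13 to 4.38 in the sulindac-treated samples, of which Cd68, a lysosomal gene, was at 11.5 ± 4.26 CPM in adenoma (SD, n = 3), and Adgre1 was at 0 throughout. Of 4 tested between adenoma and MIN, 1 was higher and 2 were lower. Stromal and pericyte markers summed to 4.00 to 4.25, 2.05 to 2.43 and 0.859 to 1.11 CPM, with Col1a2, Col3a1, Dcn and Lum at 0 in every sample. Of 3 tested, 1 was higher and 1 lower, and with replicates blocked by their number Col1a1 was also higher (log2 fold change 1.72, adjusted p = 0.00426, edgeR). Endothelial markers summed to 1.44 to 3.14, 3.01 to 7.61 and 3.69 to 4.72 CPM, mostly Vwf, with Emcn at 0. Of 2 tested 1 was lower, Pecam1, a call lost with DESeq2 (adjusted p = 0.0147) and without any 1 adenoma sample or MIN 3 (adjusted p between 0.01004 and 0.0175, edgeR). In the MIN samples the summed level of each of these lists was below that of every hydrolase but Lct, and their part in the differences was not tested. Of 5 epithelial markers, 4 were lower in adenoma at an FDR of 1%. Epcam passed 1% with same-numbered samples paired (adjusted p = 0.00654, edgeR) and not in the unpaired fit (log2 fold change -0.52, adjusted p = 0.0187, edgeR). Krt20, a keratin of mature surface cells, went from 175 ± 8.61 to 0.754 ± 0.583 CPM (mean ± SD, n = 3 per group; log2 fold change -7.86).

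Marks of the gut region differed between the groups as well. Of 5 small intestine markers, 4 were lower in adenoma and 1 was higher. Fabp6 and Slc10a2, bile acid genes of the ileum, were at 4.63 ± 1.73 and 6.15 ± 0.407 CPM in MIN and at 0.00936 ± 0.0162 and 0.0471 ± 0.0322 CPM in adenoma (mean ± SD, n = 3 per group). Pdx1, a factor of the duodenum and pancreas, rose from 0.303 ± 0.0997 to 11.6 ± 2.18 CPM (mean ± SD, n = 3 per group), a log2 fold change of 5.26 (adjusted p = 2.14e-06, edgeR). Of 2 colon markers tested, 2 were lower, and Cyp2c55 went from 60.8 ± 17.2 to 1.20 ± 0.331 CPM (mean ± SD, n = 3 per group). The gut region of each culture is not given in the sources used here, hydrolase levels differ along the gut, and region cannot be told apart from tumor origin in this comparison.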

How the data were processed

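RNA was measured by RNA-seq in 9 mouse organoid samples, with groups and replicate numbers taken from the sample titles. The authors deposited raw counts per gene symbol, not normalized; per the submitters' processing notes the tools were Bowtie2 2.2.4 and RSEM, on build mm9, and the annotation is not given in the sources used here. MIN 1 has separate runs, which differed by little more than counting noise (a chi-square of 1.19 per gene, where replicates of a group gave 18.6 to 81.7), and its total column was used as 1 sample. The paper calls the samples of a group biological replicates. Nothing says that they came from separate mice, so p-values measure the spread between these cultures.

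Genes passing filterByExpr were tested at an FDR of 1% with the quasi-likelihood functions of edgeR 4.0.16 under R 4.3.3, with robust dispersion and TMM library sizes, in a fit of the 2 groups at hand. The script was tested on simulated data. MIN and adenoma samples of the same number deviated weakly in the same direction (correlations across genes of 0.126, 0.112 and 0.191). Those of unlike number gave -0.148 to 0.0684. The labels state no pairing, so the main fit was unpaired, and a fit blocked by sample number was an alternative. Others were RLE size factors, plain library sizes, no filter, at least 10 counts in every sample, 1 fit of all 9 samples, DESeq2 1.42.0, an FDR of 5% and leaving out each sample. Ratios of pooled counts were scaled by library size and carry exact 95% binomial intervals. CPM per kb used the longest GENCODE M21 transcript, and shared sequence is the share of 50-base stretches that another gene's transcripts also hold.

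The members and the gene lists were chosen with earlier results of these data known. All members are named; from each list, up to 3 genes with the largest called change between adenoma and MIN and up to 2 after sulindac are named, plus Vil1, Hnf4a, Cdx2, Gata4, Akp3 and Mep1a. Some genes that fall under this rule are not reported here. Lists with few counts were summarised by sums of CPM. Muc3 had no row, and Adgre1 was matched through its older symbol. Protein sequences were not used here.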

Additional observations from a re-analysis of the deposited data

How the results depend on the processing

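Of 1835 recomputed log2 fold changes of the 53 named genes, 1737 kept their direction and side of the threshold, 58 were no longer called, 33 became called and 7 changed sign. Between adenoma and MIN, 1 hydrolase, Ace, became higher with DESeq2 and at an FDR of 5%, and 0 to 1 with each sample left out. With at least 10 counts in every sample, 4 hydrolases could be tested and 3 were lower, in adenoma and in sulindac-treated adenoma alike. After sulindac, 1 to 3 hydrolases were lower with each sample left out. Over all genes in that comparison, 603 were higher and 1983 lower on plain library sizes, 1775 were higher with DESeq2, 2034 were higher and 2374 lower at an FDR of 5%, and leaving out samples gave 423 to 1403 higher and 386 to 1488 lower. Plain library sizes shifted the all-gene median to 0.12 on the log2 scale for adenoma over MIN. Klf4 between adenoma and MIN changed sign on plain library sizes (0.13), with the replicate block (0.018) and over samples left out (-0.13 to 0.22). Espn after sulindac ranged from -0.24 to 0.072 and Col1a1 between sulindac-treated adenoma and MIN from -0.11 to 0.66 over samples left out, and Gata4 after sulindac was -0.0015 on plain library sizes. The cause was not tested in any of these.

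With the replicate number as a block, pairing same-numbered samples, the same number of hydrolases was lower between adenoma and MIN, 9, and in the other gene lists Myo6 and Slc9a3r1 were no longer called while Epcam, Trpm5, Mki67 and Col1a1 became called. The labels link sulindac-treated samples to the others by number alone, as they do MIN and adenoma. Correlations of same-numbered samples with the sulindac-treated ones ran from -0.08 to 0.40. With the block, 872 genes were higher and 1061 lower after sulindac, with 3 hydrolases and 3 secretory markers lower, and against MIN 10 hydrolases were lower, Ace included (adjusted p = 0.00402, edgeR). Each group held only 3 cultures. Alpi, Lct, Dpp4, Mme, Treh and Enpep held 0 to 14 counts per adenoma sample. Depth limits what can be read of the change of these genes after sulindac.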

Other observations

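Most marker genes of the secretory lineages of the gut were also lower in adenoma organoids. Of 8 secretory markers tested, 7 were lower than in MIN at an FDR of 1%, against 20.1% of all genes tested, with a median log2 fold change of -7.17. The tuft cell channel Trpm5 passed 1% with same-numbered samples paired and not in the unpaired fit (adjusted p = 0.00929 and 0.0199, edgeR). Chgb and Chga, granins of enteroendocrine cells, stood at 296 ± 124 and 25.4 ± 6.61 CPM in MIN, against 0.094 ± 0.0418 and 0.00933 ± 0.0162 in adenoma (mean ± SD, n = 3 per group). Defa24, a Paneth cell defensin, went from 3757 ± 450.3 to 14.8 ± 6.83 CPM (mean ± SD, n = 3 per group), and after sulindac to 4.01 ± 1.34 CPM, a log2 fold change of -1.86 (adjusted p = 0.00687, edgeR) that was not called without any 1 sample except adenoma 1 or without the low-count filter. After sulindac, 1 of 5 secretory markers tested was lower and 4 were not called, where 9.10% of all genes tested were lower. Of 6 stem cell and proliferation genes, 2 were lower in adenoma, 1 was higher and 3 were not called, of which Mki67, a proliferation marker, was lower with the pairing (adjusted p = 0.00491, edgeR). Olfm4, a marker of crypt stem cells, went from 1224 ± 505 to 0.124 ± 0.102 CPM, while Lgr5 fell from 227 ± 38.7 to 106 ± 24.7 CPM and Ascl2, a Wnt-responsive stem cell factor, rose from 25.1 ± 7.81 to 64.9 ± 6.95 CPM (mean ± SD, n = 3 per group). After sulindac, 0 of the 5 tested were called in the edgeR fit of those groups. At an unadjusted p under 0.05, 4 were lower, as were 3108 of all 12962 genes tested. Lgr5 (log2 fold change -0.99, adjusted p = 0.01596) was called lower by edgeR on plain library sizes, in 1 fit of all 9 samples, with the replicate block and without sulindac-treated sample 2 (adjusted p between 0.00737 and 0.00934), Smoc2 was lower with the block (adjusted p = 0.0067, edgeR), and Lgr5 and Ascl2 were lower with DESeq2 (adjusted p = 0.000538 and 0.00509).

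The genes whose pattern over the 9 samples was most like that of a hydrolase were found by Pearson's r of log2(CPM + 0.5) among 12186 genes. The samples fall into 3 groups, so r mostly describes the step between groups. For Alpi they were Chp2, Lrrc19 and Otc, for Sis they included Gm7849 and Cldn2, and for Lct they were Pcdh8, Rab30 and Enpp7 (r of 0.996 or more for each). Otc, the urea cycle enzyme, stood at 124.5 CPM in MIN against 0.17 CPM in adenoma, and Cldn2, a tight junction protein, from 310 to 16.8 CPM. For Anpep, which was lower at each step from MIN to adenoma to sulindac-treated adenoma, they were Tfpi, Gbas and Fbln1 (r between 0.990 and 0.991).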
